A study of Mus musculus with 3 samples.

Results

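The genes described here are 37 interferon-stimulated genes, taken by name as a list and followed through every cell cluster of 3 mouse melanomas profiled by single-cell RNA sequencing. All 37 were found among the 36530 features of the count tables. By role they were 3 sensors of foreign nucleic acid (Dhx58, Ifih1, Zbp1), 4 transcription factors (Irf1, Irf7, Irf9, Stat2), the ubiquitin-like modifier Isg15 with its protease Usp18, 3 Ifit proteins (Ifit1, Ifit2, Ifit3), 5 Oas proteins (Oas1a, Oas2, Oas3, Oasl1, Oasl2), 5 genes listed as other antiviral effectors (Mx1, Mx2, Rsad2, Cmpk2, Bst2; the annotation gives Mx1 and Mx2 as transcribed pseudogenes), 8 interferon-inducible GTPases (Gbp2, Gbp3, Gbp5, Gbp7, Igtp, Irgm1, Iigp1, Ifi47) and 7 other interferon-induced genes (Ifi27l2a, Ifi35, Ifi44, Rtp4, Parp14, Trim30a, Xaf1).

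One tumor was untreated, 1 had regressed under vemurafenib, an inhibitor of mutant Braf kinase, and 1 had progressed under it. All 3 came from C57BL/6 mice carrying a conditional activating Braf allele and Tyr.CreER, a tamoxifen-inducible Cre driven in melanocytes, with or without a Rosa26 tdTomato reporter, so the untreated control carried these alleles as the treated tumors did. Tumors were induced in the skin with 4-hydroxytamoxifen, and vemurafenib was given by oral gavage. Each group was 1 tumor, so groups could not be tested against each other: differences between treatments and between individual animals cannot be told apart, and every interval below is a 95% interval of counting error only.

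Interferons are secreted proteins that cells release on sensing viral or displaced nucleic acid, or, for interferon gamma, that T and NK cells release on activation. Type I interferons activate a complex with Stat2 and Irf9 that binds the interferon-stimulated response element (ISRE), whereas interferon gamma acts through the gamma-activated site (GAS) and induces Irf1. The genes switched on block viral entry, translation and replication, attack membranes around pathogens, and feed back on the pathway itself.

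A short stretch of DNA recurred near the start of many of these genes. A promoter window of 300 bases around the start was available for 27 of the 37 genes in RefSeq (build GRCm38.p6), and Ifi27l2a, Iigp1, Rtp4, Parp14, Zbp1, Usp18, Dhx58, Oas2, Mx2 and Mx1 had none. Every run of 8 bases in these windows was counted on both strands, and the run held by the most genes was AAACTGAA, or TTCAGTTT on the other strand. It lay in the windows of 13 of the 27 genes (48.1%), against 2.07% of 27025 genes with a window. Because the run was picked for being common among these genes, its share is a description with no test, and a match says nothing on binding. The 13 genes were Stat2, Isg15, Ifit1, Ifit3, Oas1a, Oasl1, Bst2, Gbp3, Gbp5, Gbp7, Igtp, Ifi44 and Xaf1. The stretches below belong to Isg15, Ifit1, Oas1a, Bst2, Gbp3 and Stat2, which act at different steps, with the shared run in capitals and each read 5′ to 3′ on the strand of its gene:
Isg15 (chr4:156200919-156200946, minus strand): tttcttttcaTTCAGTTTtggttttccc
Ifit1 (chr19:34640770-34640797, plus strand): aactgcaggcTTCAGTTTcactttccag
Oas1a (chr5:120907521-120907548, minus strand): cgggaaatggAAACTGAAaatctacttc
Bst2 (chr8:71537578-71537605, minus strand): caggaaaatgAAACTGAAaggctgcagt
Gbp3 (chr3:142559990-142560017, plus strand): aggacacagtTTCAGTTTctatttccca
Stat2 (chr10:128270267-128270294, plus strand): gcaccctggtTTCAGTTTcctttcccta

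The cells numbered 4095, 3726 and 4849 in the untreated, regressed and progressed library and fell into 25 clusters named by the authors, with medians of 4496, 2658 and 4566 unique molecular identifiers (UMIs) per cell. A UMI is a tag that lets each captured RNA molecule be counted once. The regressed library stood apart: haemoglobin RNA made up 3.96% of its UMIs, against 0.272% and 0.00848% in the untreated and progressed libraries, and Xist, which coats the silenced X chromosome, stood at 0.403 counts per 1000000 UMIs (CPM) against 1494 and 1735. The animals therefore differed in Xist, and this difference cannot be told apart from treatment. No cell identifier was shared between libraries, but identifiers were running numbers, so shared barcodes could not be counted. Clusters were grouped into tumor cells (Tumor1, Tumor2), stroma (the clusters Stroma1 to Stroma10) and cells of the immune system (Macrophages, Monocytes1, Monocytes2, Neutrophils, Mastcells, NK_T, NK_T_Cytolytic). Defining markers fitted the names in the clusters used most, with macrophage markers summing to 17173, 22464 and 23070 CPM in Macrophages and melanoma markers to 3427, 2330 and 4955 CPM in Tumor1 of the untreated, regressed and progressed tumor. Monocytes2 carried dendritic cell markers at 1426, 561 and 785 CPM.

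Together the 37 genes counted 70415 UMIs, or 1144 CPM over all cells. Ifi27l2a, an interferon-induced protein of mitochondria and the nuclear envelope, counted the most at 15965 UMIs and Ifi44 the fewest at 70 UMIs. The 3 most abundant genes held 47.0% of the UMIs and 7 genes had under 200. A summed level is therefore set largely by a few genes, and single genes are given beside each sum. Levels are of 3′ transcript ends and were not divided by length. Values of Ifit3 and Oas1a are uncertain, since each has near-identical copies in the genome and only uniquely mapped reads were counted.

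Immune cells carried the highest level of the genes among the 3 compartments in every tumor. Their summed level was 2130.3 CPM in the untreated, 1986 CPM in the regressed and 3101 CPM in the progressed tumor. In stroma it was 975, 736 and 1127 CPM. In tumor cells it was 671, 629 and 903 CPM, from 48, 410 and 160 cells. The progressed tumor thus had the highest value in each compartment and the regressed tumor the lowest. The log2 ratio of progressed to untreated was 0.54 (95% interval 0.50 to 0.58) in immune cells, 0.21 (0.18 to 0.24) in stroma and 0.43 (0.19 to 0.67) in tumor cells. The log2 ratio of regressed to untreated was -0.10 (-0.15 to -0.05) in immune cells, -0.41 (-0.45 to -0.36) in stroma and -0.09 (-0.35 to 0.17) in tumor cells, the last with an interval that includes 0. In CPM, the immune value turned to 0.08 without Ifi27l2a, and the stromal value to 0.05 without Irf1. Each of these directions thus changed sign in CPM with 1 gene left out. With the trimmed mean of M values (TMM), a scaling that allows for a shift of most genes, the untreated and regressed immune factors were 0.820 and 1.23, and the immune value of the regressed tumor went to -0.69.

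Within the compartments the levels spread widely, as the plot of summed levels by cluster shows. Stroma8, a small cluster with fibroblast markers at 17688, 22931 and 17162 CPM, had 4079 CPM of the 37 genes in its 23 untreated cells, 2050.4 CPM in 18 regressed cells and 8160.3 CPM in 21 progressed cells. Macrophages stood at 2238, 2676 and 4570.0 CPM and Monocytes1 at 2661, 2944 and 4663 CPM in the same order. Both myeloid clusters were highest in the progressed tumor, with log2 ratios to untreated of 1.03 (0.96 to 1.10) and 0.81 (0.71 to 0.91). The regressed to untreated ratio of Monocytes1, 0.15 (0.07 to 0.22), turned to -0.09 with TMM. Bloodvessel, the endothelial cluster, stood at 1253, 2080.0 and 5552 CPM, from 74, 48 and 28 cells. NK_T stood at 1008, 1544 and 1541 CPM. Mastcells were the lowest immune cluster, at 596, 468 and 669 CPM. NK_T_Cytolytic stood at 1328, 1361 and 1174 CPM and Monocytes2 at 1752, 1816 and 1916 CPM. The Monocytes2 sums were near each other, but without Ifi27l2a they were 1192, 1569.9 and 1007 CPM, highest in the regressed tumor, and the antiviral core there was at 208, 91.9 and 137 CPM, lowest in it.

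**Figure D1:**
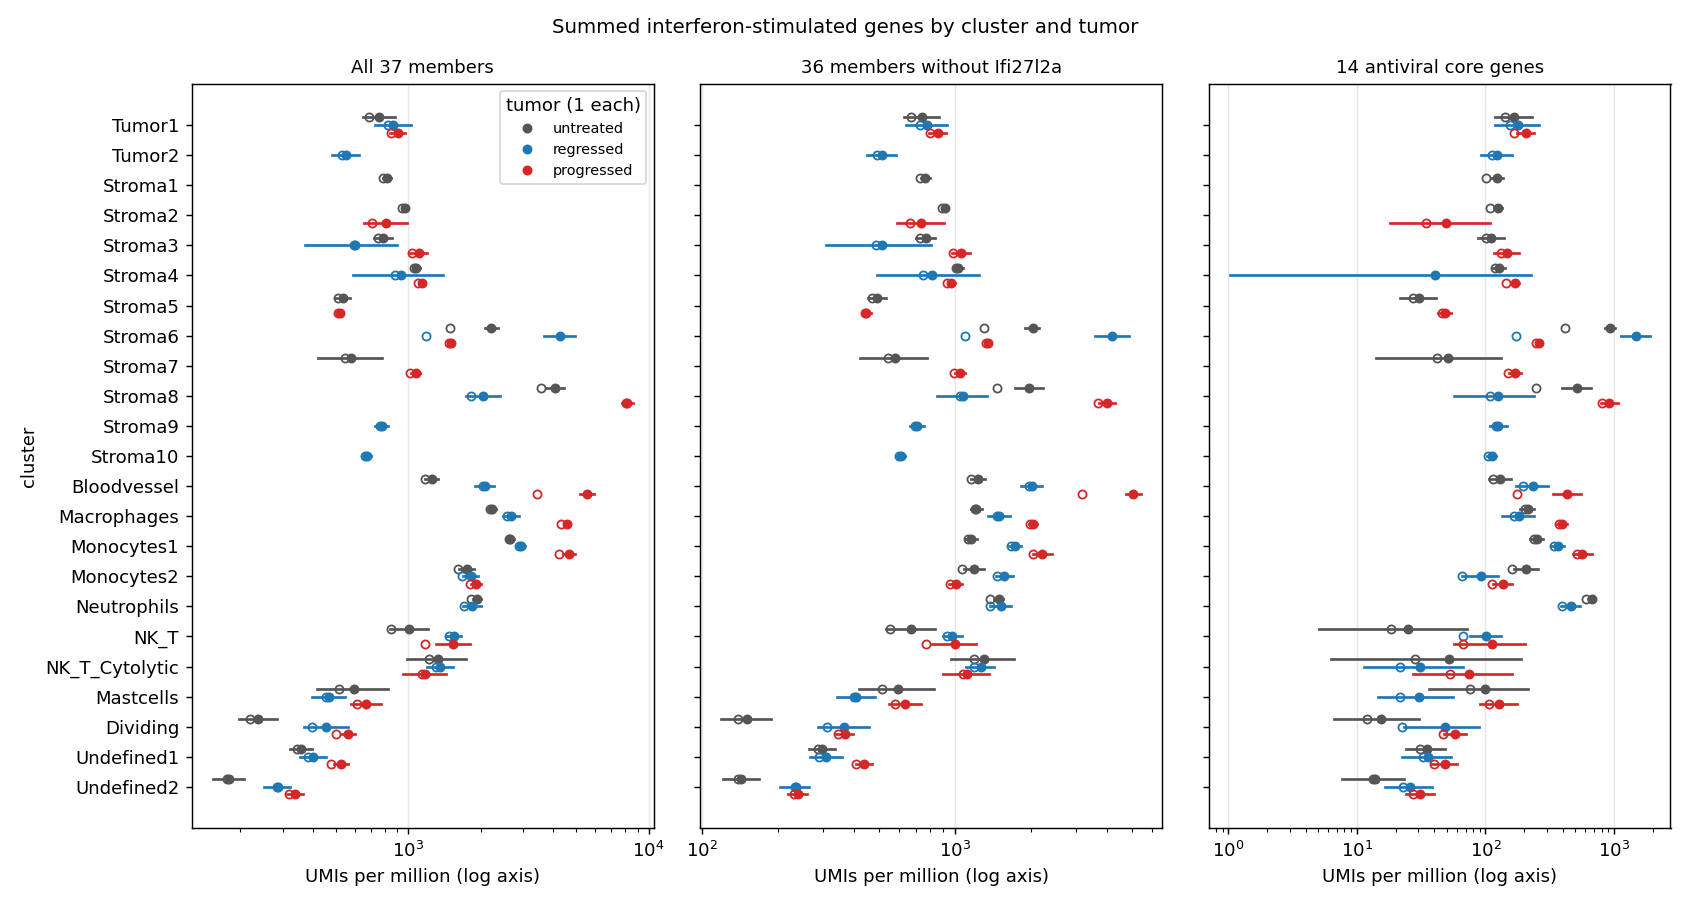
Summed level of the genes in each cluster of at least 10 cells (CPM, log axis), for all 37 genes, for 36 without Ifi27l2a and for the 14-gene antiviral core, with 1 filled point per tumor, bars for the 95% Poisson interval and open circles for the value without the cell holding the most UMIs of the genes. Macrophages, Monocytes1, Bloodvessel and Stroma8 were highest in the progressed tumor, and the open circles of Stroma6 lie far below its filled points in the untreated and regressed tumors.

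A single cell decided some of these cluster values. Stroma6 stood at 2215 CPM in the untreated and 4266 CPM in the regressed tumor, but at 1494 and 1184 CPM without the cell richest in the genes, against 1504 CPM (1484 without that cell) among the 1255 progressed cells. Its log2 ratio of regressed to untreated went from 0.95 to -0.34 and that of progressed to untreated from -0.56 to -0.01. In Bloodvessel the progressed value went from 5552 to 3416 CPM without 1 cell, and the log2 ratio to untreated from 2.15 to 1.54, so its order among tumors stayed. That vessel cell held 408 UMIs of the genes among its 21219 UMIs, 173 of them of Gbp2, a guanylate-binding protein that attacks pathogen membranes, and 57 of Iigp1, another interferon-inducible GTPase.

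The cluster with the highest level of a gene mostly differed between tumors. Of 33 genes with enough UMIs in each tumor to name a top cluster, 2 had the same one in all 3 tumors: Iigp1 in Bloodvessel and Oas1a, an enzyme that makes the messenger activating RNase L, in Monocytes1. In the untreated tumor Stroma6 was top for 10 genes, in the regressed tumor Monocytes1 for 13, and in the progressed tumor Stroma8 for 10, Bloodvessel for 9 and Macrophages for 8. With each gene's richest cell left out of every cluster, 4 of 33 had the same top cluster (Gbp2 and Iigp1 in Bloodvessel, Oas1a and Zbp1 in Monocytes1), Stroma6 was top for 7 untreated genes, Monocytes1 for 15 regressed genes, and Stroma8, Bloodvessel and Macrophages for 7, 10 and 10 progressed genes.

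**Figure D2:**
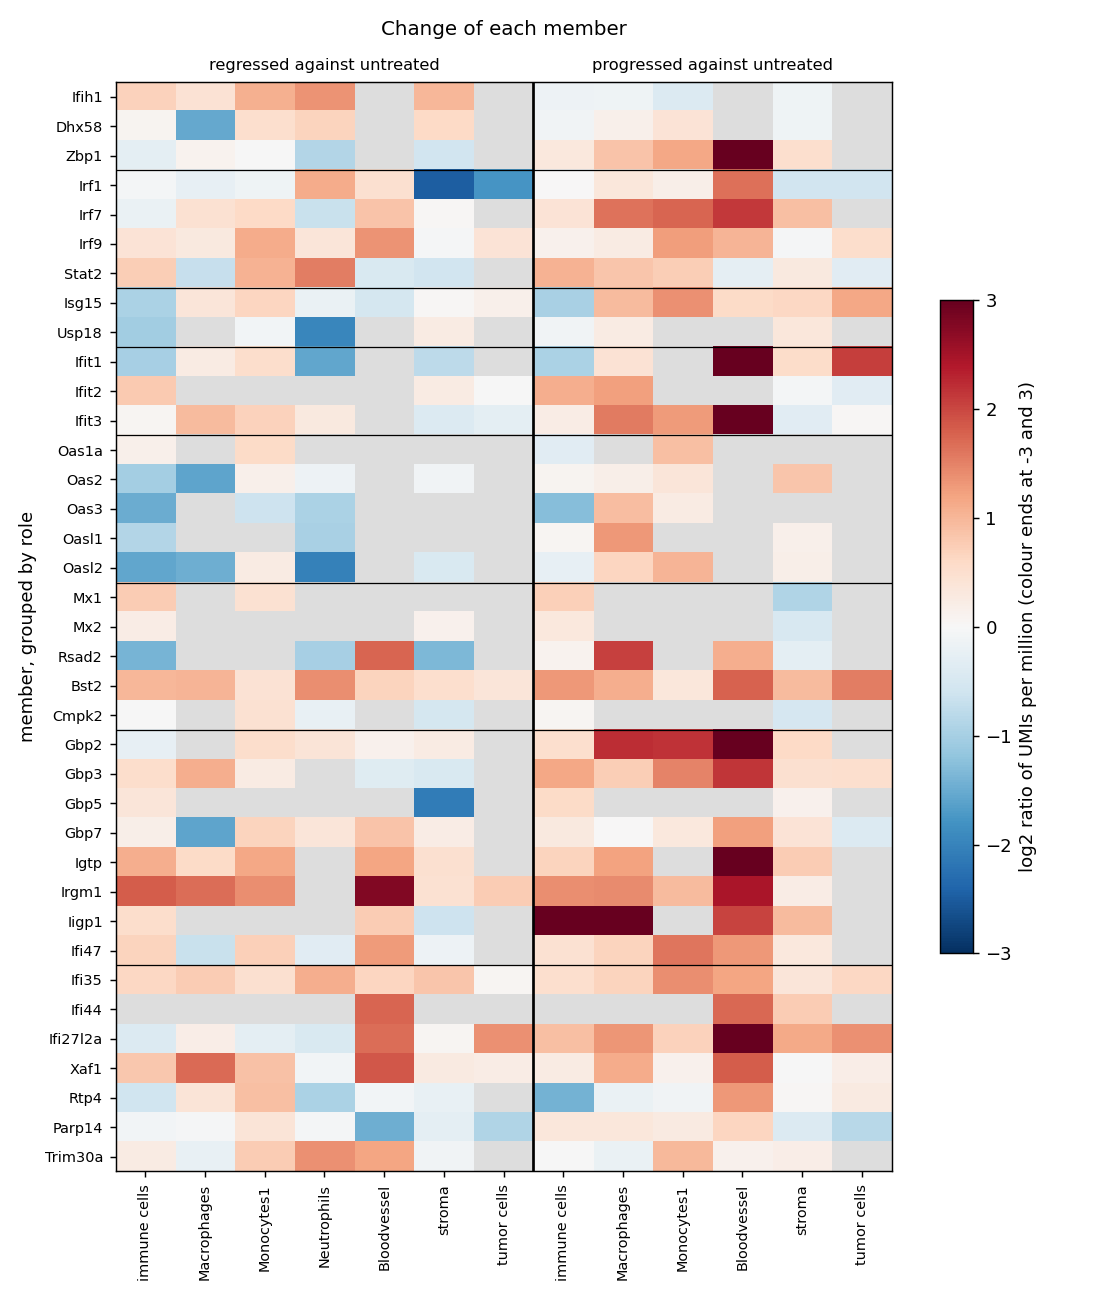
Log2 ratio of CPM of each of the 37 genes (y axis, ordered by role) in the regressed and progressed tumor against the untreated one, in compartments and clusters (x axis), with colours ending at -3 and 3 and grey where the 2 tumors together held under 20 UMIs. The progressed columns of Macrophages and Monocytes1 are almost all on the higher side, while the Oas genes are lower in regressed Neutrophils and immune cells.

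Single genes were compared where the 2 tumors together held at least 20 UMIs, and a gene past 2-fold is counted as higher or lower. In immune cells, 2 of 36 genes were at least 2-fold higher in the regressed tumor relative to the untreated one, against 25.6% of all 12580 features compared in the same way, and 6 were at least 2-fold lower, against 3.81% of features. The median log2 ratio was 0.12 for the genes and 0.51 for all features, so the genes lay below the general shift. Those lower were Oasl2, Oas3 and Oas2, Rsad2 (viperin, which makes a chain-terminating nucleotide), Usp18 and Ifit1, a binder of foreign RNA caps. The 2 higher were Irgm1 and Igtp, GTPases that act on pathogen vacuoles. In the progressed tumor 6 of 36 genes were at least 2-fold higher than in the untreated one, against 9.49% of 12089 features, and 2 were lower, against 5.73%. Here the genes' median of 0.26 and that of all features, 0.24, were alike. Higher were Iigp1, Irgm1, Bst2, Gbp3, Ifit2 and Stat2, and lower were Rtp4 and Oas3. With TMM the counts were 1 higher and 10 lower in the regressed tumor, against 10.3% and 10.6% of features under the same scaling, and 3 higher and 4 lower in the progressed one, against 5.59% and 8.07%.

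Among the sensors and transcription factors the immune differences in CPM were small apart from Stat2. Stat2, the partner of Irf9 in the ISRE-binding complex, went from 21.3 CPM untreated through 35.7 CPM regressed to 44.2 CPM progressed, and the log2 ratio of progressed to untreated was 1.05 (0.66 to 1.45). Irf7, which amplifies type I interferon production, stood at 68.2, 59.2 and 90.7 CPM. Irf9 stood at 37.5, 49.9 and 41.2 CPM. In CPM, both treated tumors were above the untreated one for Stat2 with intervals that exclude 0. Irf7 of regressed immune cells had a log2 ratio of -0.20 (-0.48 to 0.07). TMM moves the immune log2 ratios to untreated by -0.59 for the regressed tumor and by -0.27 for the progressed one. The part of this general shift in the Stat2 differences was not tested.

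Neutrophils held most of the antiviral core RNA of untreated immune cells. For 14 genes (Isg15, its protease Usp18, which feeds back on the pathway, the Ifit and Oas genes, Rsad2, Cmpk2 and the transcribed pseudogenes Mx1 and Mx2), a grouping made after values were seen and called the antiviral core here, the summed level was 669 CPM in untreated and 464 CPM in regressed Neutrophils (log2 ratio -0.53, interval -0.80 to -0.27). Neutrophils held 61.4% of the core UMIs of untreated immune cells with 37.1% of the cells, and 23.1% of those of regressed immune cells. The progressed tumor had 4 Neutrophils, with 0 core UMIs, which allows a level of up to 523 CPM at 95% and so gives no comparison. Over all immune cells the core summed to 368 CPM untreated, 207 CPM regressed and 277 CPM progressed, lowest in the regressed tumor. Without Neutrophils it stood at 214, 178 and 278 CPM, and the log2 ratio of progressed to untreated went from -0.41 to 0.37. The direction of that comparison thus depended on whether Neutrophils were counted.

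Single genes of the core in Neutrophils were lower in the regressed tumor to unequal degrees. Oasl2, an Oas-like protein, counted 147 untreated and 7 regressed UMIs (96.6 and 23.5 CPM), a log2 ratio of -2.04 (-3.38 to -0.96). Ifit1 stood at 49.3 and 16.8 CPM, with -1.55 (-3.22 to -0.27). Isg15, the most abundant of them, stood at 330.0 and 289 CPM, with -0.19 (-0.54 to 0.14). In CPM, Isg15 therefore did not differ beyond counting error where Oasl2 did. Over the 27 genes compared, 6 were at least 2-fold higher in regressed Neutrophils, against 30.1% of 5887 features, and 3 were lower (Oasl2, Usp18 and Ifit1), against 4.93%. The higher ones were Stat2, Bst2, Trim30a, Ifih1, Irf1 and Ifi35. Usp18 counted 20 and 1 UMIs there. The interval excluded 0 for 5 of the 6 higher and 2 of the 3 lower. Without each gene's richest cell, 5 were higher and 7 lower (Oasl2, Ifit1, Oasl1, Zbp1, Rsad2, Rtp4 and Oas3), and Usp18 and Ifi35 no longer passed. With TMM, 0 were higher and 13 lower, against 7.07% and 18.7% of features. The marker sum of Neutrophils was 233341 CPM in untreated and 97676 CPM in regressed cells, and the TMM factors were 0.540 and 0.961. TMM moved the log2 ratio of the summed 37 genes in Neutrophils from -0.07 to -0.90. The part of this difference in RNA composition was not tested.

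Isg15 over all immune cells stood at 148, 75.8 and 75.4 CPM, and Rtp4, a receptor chaperone induced by interferon, at 126, 83.5 and 47.2 CPM. Both were highest in the untreated tumor, which also had the most Neutrophils. Neutrophils carried Rtp4 at 229 CPM in the untreated and 118 CPM in the regressed tumor.

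Macrophages of the progressed tumor had higher levels across most roles. Of 31 genes compared, 12 were at least 2-fold higher than in untreated Macrophages, against 3.55% of 8948 features, and 0 were lower, against 4.84%. The interval lay above 0 for 11 of the 12, and all 12 stayed past 2-fold when each gene's richest cell was left out of each tumor. The genes' median log2 ratio was 0.83 against -0.11 for all features, and 28 of 31 ratios were above 0. In regressed Macrophages 4 of 24 were higher, against 7.69% of 7584 features, and 4 were lower, against 10.7%. The higher 4 were Xaf1, Irgm1, Gbp3 and Bst2, and the lower 4 were Oas2, Gbp7, Dhx58 and Oasl2. The interval excluded 0 for 3 of the higher and 2 of the lower, and Gbp3 no longer passed without its richest cells.

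Summed by role, every group of the genes was higher in progressed than in untreated Macrophages, with log2 ratios from 0.49 (0.16 to 0.82) for the sensors to 1.16 (0.96 to 1.35) for the other antiviral effectors, and 0.92 (0.67 to 1.17) for the GTPases. Iigp1 counted 9 untreated, 2 regressed and 75 progressed UMIs (7.44, 7.42 and 59.3 CPM). Gbp2 counted 11, 5 and 53 UMIs (9.09, 18.6 and 41.9 CPM). The progressed tumor stood above the others for both, with log2 ratios to untreated of 2.99 (1.99 to 4.18) for Iigp1 and between 1.25 and 3.29 (95% interval) for Gbp2. Among antiviral effectors, Rsad2 stood at 11.6, 7.42 and 48.2 CPM and Ifit3 at 11.6, 22.3 and 34.0 CPM. Irf7 stood at 40.5, 55.7 and 126 CPM. All 3 were highest in the progressed tumor, and the ratio of Irf7 to untreated was 1.63 (1.16 to 2.13). By role, 4 of 7 GTPases, 4 of 10 core genes, 1 of 4 transcription factors and 0 of 3 sensors were past 2-fold. Macrophage markers in the same cells were at 17173 CPM untreated and 23070 CPM progressed, and the part of that difference was not tested.

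Monocytes1 also had higher levels in the progressed tumor. There 10 of 25 genes were at least 2-fold higher than untreated, against 6.53% of 6787 features, and 0 were lower, against 10.8%. Those genes were Gbp2, Irf7, Ifi47, Gbp3, Ifi35, Isg15, Ifit3, Irf9, Zbp1 and Oasl2, of which Ifit3 and Oasl2 no longer passed without their richest cells. Isg15 went from 71.2 CPM untreated through 111 CPM regressed to 185 CPM progressed. Irf7 stood at 67.6, 102 and 225 CPM. Zbp1, a sensor of left-handed nucleic acid that can trigger necroptosis, stood at 118, 117 and 265 CPM. Isg15 and Irf7 were thus intermediate in the regressed tumor, while Zbp1 there was level with the untreated tumor. In the regressed tumor 5 of 30 genes were higher (Irgm1, Igtp, Irf9, Ifih1 and Stat2), against 12.5% of 8304 features, and 0 were lower, against 3.19%. The progressed sample of this cluster was 53 cells, and its macrophage markers stood at 22843 CPM against 9400 CPM in untreated and 13451 CPM in regressed cells. Their part in the result was not tested.

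**Figure D3:**
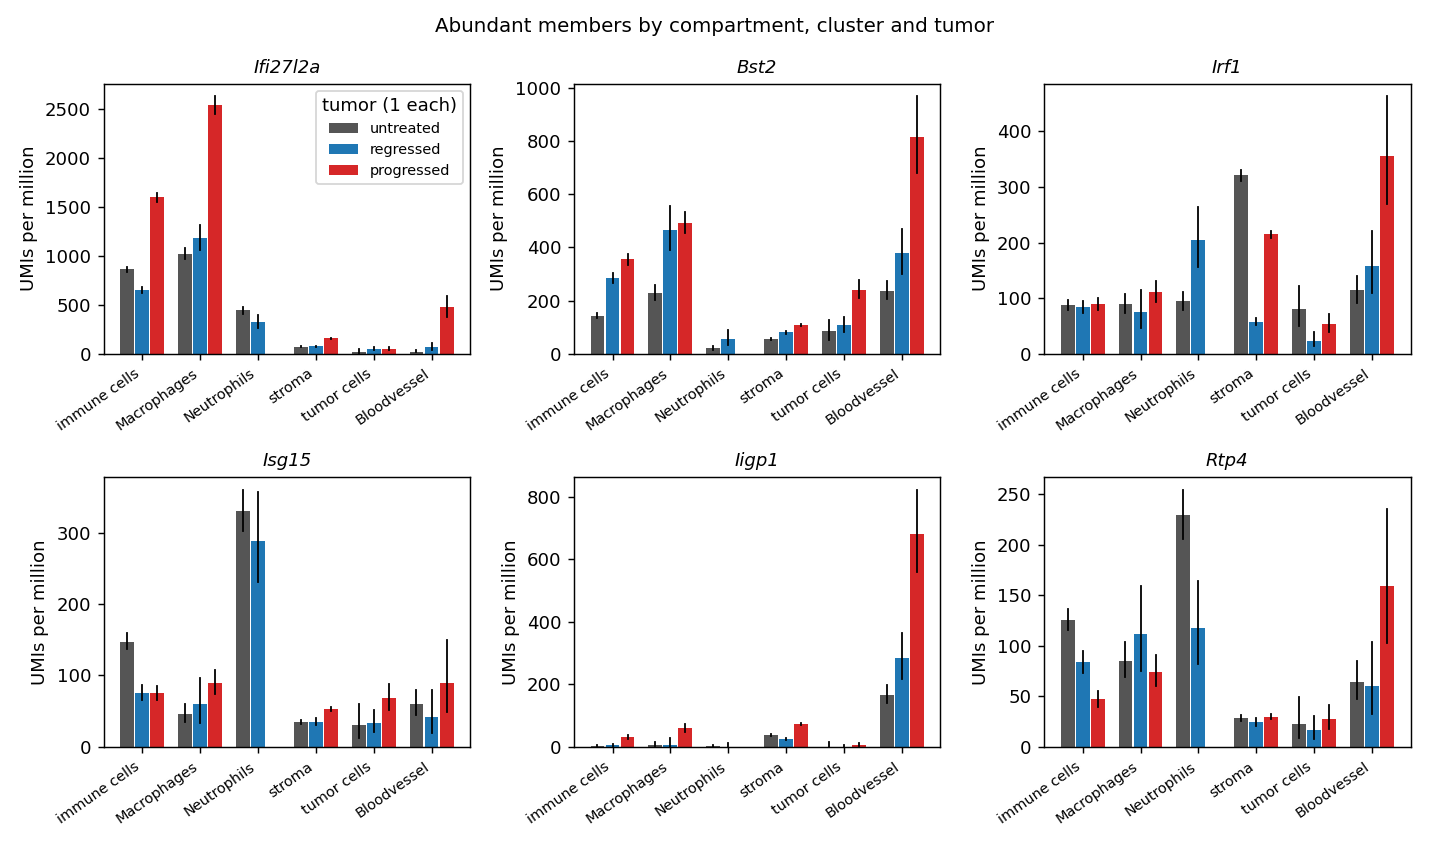
Level in CPM of Ifi27l2a, Bst2, Irf1, Isg15, Iigp1 and Rtp4 in immune cells, Macrophages, Neutrophils, stroma, tumor cells and Bloodvessel of the 3 tumors, as bars from 0 with 95% Poisson intervals. Ifi27l2a and Bst2 were highest in the progressed tumor in Macrophages and stroma, and stromal Irf1 was lowest in the regressed tumor.

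Ifi27l2a (Entrez 76933, on chromosome 12) was abundant in myeloid cells. In immune cells its level was 861 CPM untreated, 647 CPM regressed and 1598 CPM progressed. In Macrophages it stood at 1022, 1180.3 and 2537 CPM, and in stroma at 72.0, 75.5 and 158 CPM. The progressed value was the highest each time, with log2 ratios to untreated of 0.89 (0.83 to 0.95), 1.31 (1.22 to 1.41) and 1.13 (1.03 to 1.24). In 12 of 16 clusters compared, the interval of that ratio lay above 0. The level also followed the number of cells with a UMI: after every cell was thinned to 1000 UMIs, the share of Macrophages with the gene was 38.8% untreated, 44.6% regressed and 51.5% progressed. Unthinned shares were 62.5%, 58.7% and 73.2% at medians of 3429, 1388 and 3450.0 UMIs per cell. Erythrocytes of the regressed tumor, which should lack the gene, gave 5.26% thinned and 18.3% unthinned at a median of 8465 UMIs. Haemoglobin made up 88.4% of their UMIs, so thinning left few others and the thinned share is a low measure of free RNA. Among their UMIs other than haemoglobin, all genes of the list together stood at 1719 CPM, and 1 cell held 19 of their 51 core UMIs. The untreated and progressed tumors had 7 and 1 Erythrocytes, so this Erythrocyte measure of free RNA was taken in the regressed library only.

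Bst2 (tetherin), which holds budding virus particles to the cell surface, differed in all 3 compartments. It stood at 143, 285 and 355 CPM in immune cells, at 56.0, 79.7 and 107 CPM in stroma and at 83.4, 107 and 241 CPM in tumor cells. The order untreated, regressed, progressed was the same in each compartment, although the regressed to untreated ratio of tumor cells, 0.37 (-0.35 to 1.14), included 0. The progressed to untreated log2 ratios were 1.31 (1.17 to 1.45), 0.94 (0.82 to 1.06) and 1.53 (0.89 to 2.24). In 12 of 18 clusters the progressed to untreated interval lay above 0, and in 1, NK_T_Cytolytic, it lay below. In thinned Macrophages 21.1%, 30.4% and 34.6% of cells had a UMI, against 0 of 57 thinned Erythrocytes, which allows up to 6.27%. Unthinned, the Macrophage shares were 49.4%, 47.6% and 67.3%, against 13.3% of regressed Erythrocytes. The thinned Erythrocyte value is again a low measure, since most of their UMIs were haemoglobin.

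In stroma few genes passed 2-fold. Of 32 compared, 1 (Ifih1) was higher in the regressed tumor, against 13.7% of 14791 features, and 3 (Irf1, Gbp5 and Rsad2) were lower, against 7.09%. In the progressed tumor 1 of 35 (Ifi27l2a) was higher than untreated, against 3.57% of 15068 features, and 0 were lower, against 5.70%. All 8 GTPases had progressed to untreated ratios above 0 in stroma, none of them 2-fold, with a median log2 ratio of 0.44 against -0.06 for all features. The stromal clusters differed between tumors: Stroma10 and Stroma9 held 75.6% and 21.5% of regressed stromal UMIs, Stroma2 and Stroma1 41.8% and 21.0% of untreated ones, and Stroma6 and Stroma5 32.4% and 31.5% of progressed ones. What part of these differences came from the mix of clusters was not tested.

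Irf1, the interferon gamma-responsive factor named above, gave the widest stromal ratio of the genes compared. It counted 4517 untreated, 370 regressed and 3774 progressed UMIs, or 321, 57.6 and 215 CPM. The regressed tumor stood far below both others, with a log2 ratio to untreated of -2.48 (-2.63 to -2.32). In tumor cells Irf1 stood at 79.6, 23.5 and 53.6 CPM, again lowest in the regressed tumor, with -1.76 (-2.85 to -0.72). In immune cells it stood at 87.5, 83.8 and 88.7 CPM, with no difference in CPM beyond counting error, and in Neutrophils at 94.0 CPM untreated and 205 CPM regressed. TMM moves the regressed to untreated log2 ratio by -0.59 in immune cells and by -0.83 in Neutrophils. The share of thinned stromal cells with an Irf1 UMI was 24.7%, 5.77% and 17.5%, and the unthinned share 57.2%, 15.2% and 43.6%. Regressed Erythrocytes gave 0% thinned and 5.0% unthinned, with the haemoglobin limit given above. Immediate early genes, which tissue digestion can induce, were also lowest in the regressed tumor. Fos, Fosb, Jun, Junb, Egr1 and Atf3 (a list chosen after values were seen) summed to 13635, 6871 and 13152 CPM in stroma. They summed to 6771, 2508 and 4646 CPM in tumor cells and to 9001, 8126 and 12440 CPM in immune cells. In progressed stroma their sum was near the untreated one, whereas Irf1 was lower. In immune cells their sum was highest in the progressed tumor, whereas Irf1 was level in CPM. The feedback inhibitor Socs3 was lowest in regressed stroma too, at 1611, 384 and 1175 CPM. Their part in the Irf1 difference was not tested.

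Ifih1 (Mda5), a sensor of long double-stranded RNA, was the 1 stromal gene higher in the regressed tumor, with 16.4 CPM untreated, 32.8 CPM regressed and 15.0 CPM progressed. The interval of its log2 ratio to untreated ran from 0.72 to 1.28.

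In tumor cells few genes could be compared, since the untreated tumor gave 48 of them. Of 11 genes compared, Ifi27l2a was at least 2-fold higher in the regressed tumor, against 16.0% of 6953 features, with an interval that includes 0 (-0.025 to 3.09), and Irf1 was lower, against 6.70%. In the progressed tumor 4 of 15 were higher than untreated, against 9.70% of 7369 features, and 0 were lower, against 5.60%. The 4 were Ifit1, Bst2, Ifi27l2a and Isg15. Ifit1 counted 2 untreated, 5 regressed and 27 progressed UMIs, and Isg15 8, 20 and 57 UMIs. Both were highest in the progressed tumor (Isg15 at 30.3, 33.6 and 67.9 CPM), although 9 of the Ifit1 UMIs and 11 of the Isg15 UMIs there came from 1 cell each. Of the tumor cell UMIs, Tumor2 held 74.7% in the regressed tumor but 16.4% and 1.35% in the untreated and progressed ones, so within Tumor1 alone the summed level was 757, 867 and 904 CPM and the regressed value lay above the untreated one, with an interval of the log2 ratio from -0.14 to 0.53.

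Stroma8 had the highest summed level among clusters of the progressed tumor, and Bloodvessel came next only with its richest cell, since without each cluster's richest cell it fell to 3416 CPM, below Macrophages (4328 CPM) and Monocytes1 (4243 CPM). In Bloodvessel Iigp1 stood at 167, 284 and 681 CPM, Bst2 at 237, 378 and 815 CPM and Ifi27l2a at 20.5, 65.3 and 471 CPM, in the order untreated, regressed, progressed. Each was higher at each step of that order, and without the richest cells the progressed to untreated log2 ratios were 1.35, 1.45 and 3.69. Endothelial markers stayed near each other at 1866, 1926 and 1726 CPM, and macrophage markers stood at 172, 191 and 50.9 CPM. In Stroma8 Ifi27l2a stood at 2118, 976 and 4175 CPM. Irf7 counted 21, 4 and 110 UMIs there, Isg15 8, 2 and 63 UMIs, and Gbp2 2, 6 and 34 UMIs. The first 3 were lowest in the regressed tumor and all 4 highest in the progressed one, from 23, 18 and 21 cells. Macrophage markers in Stroma8 stood at 41.0, 181 and 42.1 CPM. Whether RNA of other cells added to the values of Stroma8 and Bloodvessel was not tested.

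Core UMIs were concentrated in few cells, as the plot of the share of cells by core UMIs shows. Cells with at least 10 core UMIs numbered 51 of 4095 in the untreated tumor (1.25%), 22 of 3726 in the regressed tumor (0.590%) and 73 of 4849 in the progressed tumor (1.51%). They held 36.5%, 24.6% and 34.8% of the core UMIs of their tumors. These shares are not corrected for depth, and the regressed cells were shallower. After thinning to 1000 UMIs, the share of cells with at least 3 core UMIs was 1.27% (0.95 to 1.67), 0.992% (0.67 to 1.41) and 1.44% (1.12 to 1.82), with overlapping intervals, and 92, 703 and 55 shallower cells were left out. The unthinned cells with at least 10 core UMIs had a median of 5 core genes each and lay in 11, 7 and 12 clusters. In untreated Stroma6, 4 of 83 cells held 86.7% of the core UMIs, and in untreated Neutrophils 23 of 391 held 45.6%. In Macrophages the untreated tumor had 1 cell of 312 that reached 10 core UMIs, the regressed tumor 0 of 143 and the progressed tumor 12 of 339. Thinned, 4 of 304, 1 of 92 and 14 of 332 Macrophages had at least 3. The richest cell, in untreated Stroma6, had 251 core UMIs among 11543, including 114 of Ifit3, 40 of Ifit1 and 40 of Isg15, and UMIs of 33 of the 37 genes. Whether any of these were doublets was not tested.

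**Figure D4:**
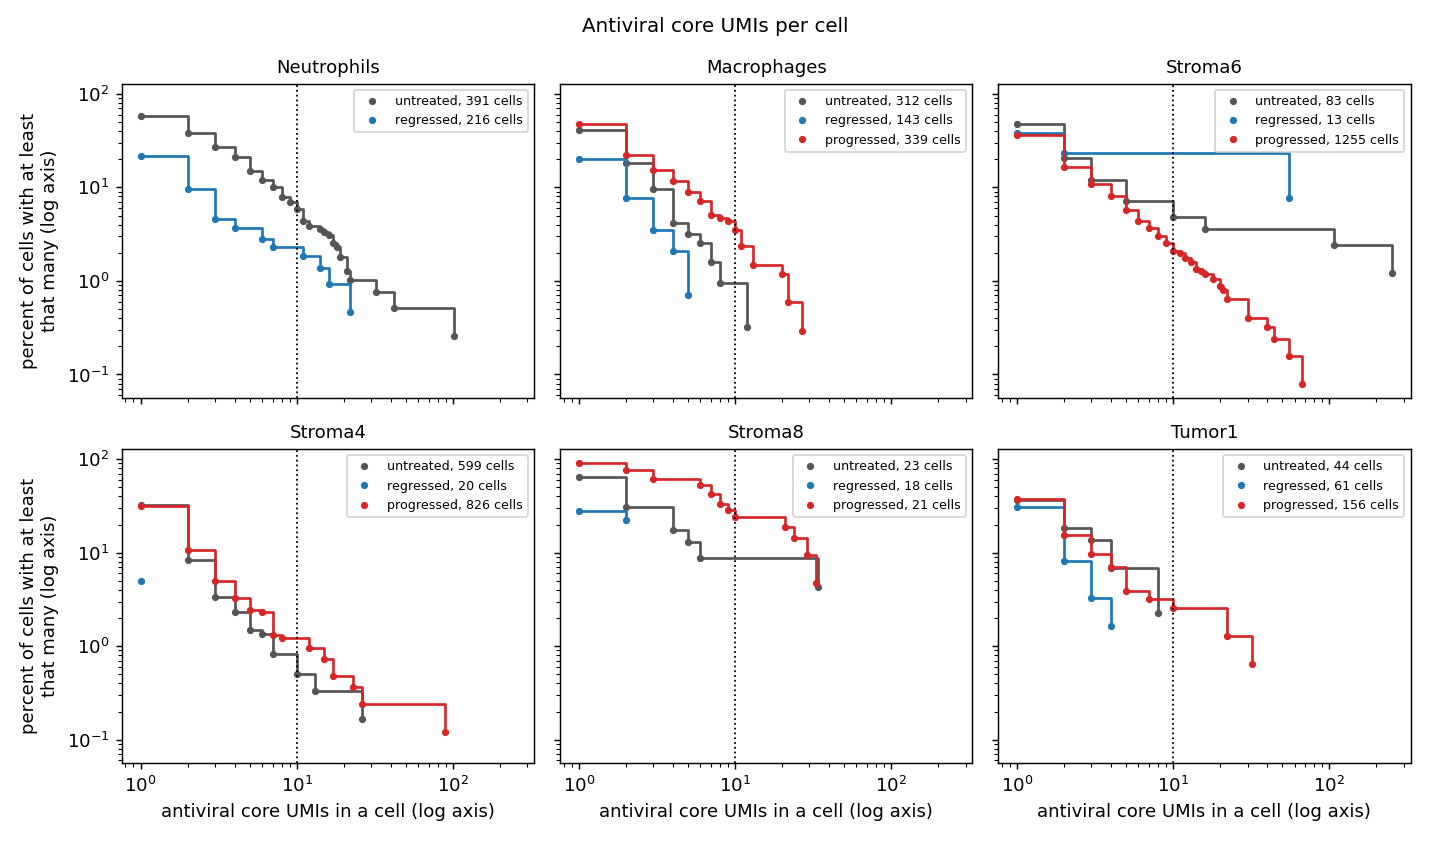
Percent of cells (log axis) with at least a given number of antiviral core UMIs (log axis) in Neutrophils, Macrophages, Stroma6, Stroma4, Stroma8 and Tumor1 of each tumor, with a dotted line at 10 UMIs. In Macrophages 12 of 339 progressed cells passed the line against 1 of 312 untreated cells.

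Upstream of these genes, interferon RNA itself was almost undetected. Of 10 ligand genes, Ifng alone was above 0 in immune cells, with 6 untreated, 15 regressed and 5 progressed UMIs (1.33, 5.19 and 1.66 CPM). At this depth no ranking of the other ligands was possible. Ifngr1, a receptor chain for interferon gamma, was abundant at 307, 490.0 and 230 CPM in immune cells, highest in the regressed tumor.

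Among the interferon-induced chemokines, Cxcl9 and Cxcl10 differed between tumors. Cxcl9, a T cell attractant induced by interferon gamma, counted 1 untreated, 1 regressed and 150 progressed UMIs in immune cells (0.222, 0.346 and 49.8 CPM), but 71 of the 150 came from 1 macrophage, and 1 UMI in each of the other tumors leaves the ratio loosely bounded (log2 interval to untreated 5.31 to 13.1). In stroma it counted 158, 8 and 440 UMIs. Cxcl10, a related chemokine, stood at 16.4, 14.9 and 43.9 CPM in immune cells and at 46.7, 1.09 and 24.7 CPM in stroma. Both chemokines were lowest in regressed stroma, with log2 ratios to untreated of -3.17 (-4.41 to -2.16) for Cxcl9 and -5.42 (-6.74 to -4.37) for Cxcl10. In progressed Bloodvessel, 169 of 171 Cxcl9 UMIs came from the vessel cell rich in Gbp2.

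Other genes of the pathway, 77 on a list drawn up with earlier results known, moved less uniformly. In immune cells 9 of 60 compared were at least 2-fold higher in the regressed tumor and 2 lower, against 25.6% and 3.81% of features, and 4 of 60 were higher and 3 lower in the progressed tumor, against 9.49% and 5.73%. Among 40 interferon-stimulated genes outside the 37, progressed Monocytes1 had 11 of 26 higher and 1 lower, against 6.53% and 10.8% of features, and progressed Macrophages 3 of 31 higher and 1 lower, against 3.55% and 4.84%. Ifitm1, a membrane protein that blocks viral fusion and is abundant in neutrophils, was the lower one in both and stood at 3389.7, 896 and 20.3 CPM over all immune cells. The 37 genes and these 40 therefore gave different counts in Macrophages (12 of 31 against 3 of 31). The summed progressed to untreated log2 ratio of the 40 was -1.11 (-1.14 to -1.08) in immune cells and -0.32 (-0.34 to -0.31) in stroma. The sums of the 37 genes were higher in the progressed tumor in both. Neutrophils held 33.8% of the UMIs of untreated immune cells and 0.235% of those of progressed ones. The immune ratio of the 40 was not taken without them, so the part of this mix was not tested. Not every immune cluster is listed here for the 40, so the next values do not stand for immune clusters in general. For the 40 the ratio was 0.16 (0.11 to 0.21) in Macrophages, 0.50 (0.44 to 0.56) in Monocytes1 and 0.26 (0.14 to 0.39) in tumor cells. These differences were not tested.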

How the data were processed

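RNA of 3 dissociated melanomas was captured with a droplet 3′ kit (Chromium v2) and sequenced on a HiSeq4000. According to the study's methods, reads were aligned to GRCm38 with GSNAP, and UMIs of uniquely mapped, sense, exonic reads were counted per gene in cells with at least 300 UMIs. The authors deposited counts of UMIs per Entrez ID and cell, 1 table per tumor, and a table of cells whose total UMIs and genes detected are counts made by the authors and whose labels (tumor, cluster number, cluster name) the authors deposited as values of the other unit. Clusters were made by the authors with Seurat 2.2.0. The summed tables exceeded the deposited totals by 5.02% (cause not found), and the tables were used. Of 36530 features, 5401 had no symbol and stayed in the totals.

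UMIs were summed per cluster or compartment and tumor and divided by all UMIs of those cells (CPM), with exact Poisson 95% intervals. Pairs of tumors were compared as log2 ratios of CPM, with intervals from the exact binomial test of 1 count given their sum. A gene at 0 UMIs was placed at 3 UMIs per group and its ratio is a bound. A ratio needed at least 20 UMIs in the 2 tumors and was called past 2-fold. Shares of cells carry Clopper-Pearson intervals after thinning to 1000 UMIs (seed 1; shallower cells left out). Intervals and bounds cover counting error only. Some items of the genotype and the pathway are not reported here. Groups came from the sample titles, n was 1 tumor each, and no test was run. No doublets were called or removed, and the compartments did not include the clusters Bloodvessel, Dividing, Erythrocytes, MitoHigh, Undefined1 and Undefined2. The 12670 cells summed to 22202192, 12413268 and 26948940 UMIs in the untreated, regressed and progressed tumor.

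The members, the pathway lists and the markers were chosen with earlier results of these data known, and the antiviral core and the immediate early list after values were seen. Genes were named where they passed 2-fold, were abundant or held a role described. Alternatives were TMM scaling, thinning, 1.5-fold, no UMI minimum, equal weights per cell or shared cluster, and leaving out the most abundant gene, the 5% deepest cells, Neutrophils or the richest cells, the last 2 added after the data were seen, as was a limit of 3 core UMIs in thinned cells. Scripts were checked on simulated counts. Python 3.11.15 (numpy 2.4.6, scipy 1.17.1, pandas 2.3.3, matplotlib 3.10.9) and R 4.3.3 (edgeR 4.0.16, for TMM factors only) were used.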

Additional observations from a re-analysis of the deposited data

Results flagged for a closer look

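The summed level of the 37 genes moved in opposite directions in different clusters of the same 2 tumors, each value with an interval that excludes 0, and these differences between clusters were not tested. From the untreated to the regressed tumor, the log2 ratio was above 0 in Bloodvessel (0.73), Dividing (0.94), Macrophages (0.26), Monocytes1 (0.15), NK_T (0.61), Stroma6 (0.95) and Undefined2 (0.67), and below 0 in Stroma8 (-0.99). From the untreated to the progressed tumor it was above 0 in Bloodvessel (2.15), Dividing (1.24), Macrophages (1.03), Monocytes1 (0.81), Monocytes2 (0.13), NK_T (0.61), Stroma3 (0.49), Stroma4 (0.074), Stroma7 (0.89), Stroma8 (1.0), Tumor1 (0.26), Undefined1 (0.55) and Undefined2 (0.92), and below 0 in Stroma6 (-0.56). Stroma8 was thus below the untreated level in the regressed tumor and above it in the progressed tumor. The Stroma6 values changed with 1 cell per tumor, to -0.34 and -0.01. Without Ifi27l2a the progressed to untreated value turned to -0.094 (-0.167 to -0.021) in Stroma4 and to -0.24 (-0.40 to -0.087) in Monocytes2. That of Tumor1 changed sign without its most abundant gene, as given below.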

How the results depend on the processing

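No paired analysis was possible because each group held 1 tumor and no test was run. With 1 tumor per group, no replicate could be left out. The 37-gene log2 ratio of regressed to untreated immune cells (-0.10) became -0.69 with TMM, -0.22 with cells thinned to 1000 UMIs, -0.18 with equal weight per cell and -0.16 without Neutrophils, and turned to 0.076 without Ifi27l2a, 0.17 with equal weight of shared clusters and 0.12 as the median of the genes. That of progressed to untreated immune cells (0.54) became 0.27, 0.44, 0.48 and 0.48 under the first 4 of these settings and 0.24, 0.60 and 0.26 under the last 3. In stroma, regressed to untreated (-0.41) became -0.65 with TMM, -0.51 thinned, -0.50 per cell, -0.058 over shared clusters and -0.071 as the median, and turned to 0.053 without Irf1. Progressed to untreated stroma (0.21) became 0.27 with TMM, 0.33 thinned, 0.48 without Irf1, 0.30 per cell and 0.54 over shared clusters. In tumor cells, regressed to untreated (-0.09) became -0.68 thinned and 0.20 over shared clusters, the latter a change of sign within an interval that includes 0. Progressed to untreated tumor cells (0.43) became 0.069 thinned and 0.17 without the most abundant gene. The signs of all 3 progressed to untreated compartment sums thus held under every alternative run, although that of tumor cells fell to 0.069 when thinned. Tumor1 by itself changed sign without its most abundant gene. The cause of the changes was not tested.

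Counts of genes past 2-fold moved as follows. Shares of all features are not given for the counts at 1.5-fold, with at least 1 UMI or without richest cells. Those counts therefore cannot be set against a general shift of all features. TMM gave 1 higher and 10 lower in regressed immune cells, 3 higher and 4 lower in progressed immune cells, 0 higher in regressed stroma and 2 higher in progressed stroma. Of all features under TMM, 9.70% were higher in regressed stroma and 4% in progressed stroma. At 1.5-fold there were 10 higher in regressed and 4 lower in progressed immune cells, 3 higher and 5 lower in regressed stroma, 9 higher and 1 lower in progressed stroma, 2 higher and 2 lower in regressed tumor cells and 1 lower in progressed tumor cells. With at least 1 UMI there were 2 higher in regressed stroma, 2 higher and 4 lower in regressed tumor cells, and 7 higher and 5 lower in progressed tumor cells. Without each gene's richest cell there were 3 higher and 7 lower in regressed immune cells, 6 higher and 3 lower in progressed immune cells, 1 higher and 2 lower in regressed stroma (Rsad2 no longer passed), 2 higher and 1 lower in progressed stroma, 2 higher and 2 lower in regressed tumor cells, and 6 higher and 0 lower in progressed tumor cells. Of 173 values for single clusters under the alternatives, 126 moved by less than their counting interval, 42 moved further and 5 changed sign: Monocytes1 regressed with TMM (-0.091), Monocytes2 progressed without its most abundant gene (-0.24), Stroma6 regressed without its richest cells (-0.34), Stroma6 progressed after thinning (0.078) and Tumor1 progressed without its most abundant gene (-0.013). Depth limited tumor cells most, where 11 and 15 of 37 genes could be compared.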

Other observations

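Dividing cells, which the compartments left out, carried 238 CPM of the 37 genes in the untreated tumor (43 cells), 457 CPM in the regressed (75 cells) and 561 CPM in the progressed tumor (147 cells). The untreated value was the lowest, and the progressed to untreated log2 ratio was 1.24 (95% interval 0.97 to 1.52). This cluster held a different mix of cell types in each tumor. Keratinocyte markers stood at 5609, 11303 and 3356 CPM, fibroblast markers at 5742, 2036 and 11122 CPM, and T and NK cell markers at 63.7, 933 and 2.96 CPM. Median UMIs per cell were 11361, 889 and 11402. The part of the mix and of depth in these values was not tested. The Undefined1 cluster stood at 358, 403 and 526 CPM and Undefined2 at 179, 286 and 338 CPM in the same order, below every named immune cluster. The pathway's feedback inhibitor Socs1 stood at 188, 40.2 and 121 CPM in stroma, lowest in the regressed tumor, and at 26.2, 50.9 and 28.6 CPM in immune cells, highest there. Neutrophil marker RNA in Bloodvessel, 2659.8, 886 and 6.37 CPM, followed the number of Neutrophils in each library.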
